A study of Solanum lycopersicum with 12 samples.

Results

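Tyramine hydroxycinnamoyl transferases (THT) and aromatic amino acid decarboxylases (AADC) were followed in tomato leaves attacked by larvae of the leafminer *Tuta absoluta*. The 7 genes were taken by identifier from the 34075 genes of the count tables: the THT copies *Solyc08g068690*, *Solyc08g068700*, *Solyc08g068710* and *Solyc08g068730*, and the AADC genes *Solyc08g006740*, *Solyc08g068680* and *Solyc08g068610*. The selection rule reads identifiers only, but it was written with earlier results of these data known. In the pathway list of the study, *Solyc08g006740* is named aromatic amino acid decarboxylase 2 and *Solyc08g068680* aromatic amino acid decarboxylase 1A, whereas *Solyc08g068610* is called a decarboxylase here by the selection only. All 7 passed the filter of more than 1 CPM (counts scaled to a common library size) in at least 3 of the 12 libraries, as did 18200 genes in all.

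THT enzymes join the amine tyramine to the CoA thioester of a hydroxycinnamic acid such as ferulic or coumaric acid, which gives amides that plants of the tomato family are known to build into cell walls after wounding or infection. AADC enzymes remove the carboxyl group of tyrosine, phenylalanine or tryptophan, and tyramine is the product from tyrosine. The tomato decarboxylases are also known from fruit, where the amine made from phenylalanine leads to the scent compound 2-phenylethanol.

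The plants were *Solanum lycopersicum* cv. Better Bush, a dwarf hybrid grown in hydroponics in a growth chamber. Terminal leaflets of a true leaf received 6 larvae per plant (infested) or a mock deposition (control), and leaflets were harvested after 5 h or 24 h. Each of the 4 groups (control 5 h, infested 5 h, control 24 h and infested 24 h) has 3 libraries of leaf RNA. The methods state 6 infested and 6 mock-treated plants, but neither they nor the labels say whether a library is a single plant. P-values therefore measure the spread between libraries only. In RNA of whole leaflets, fewer cells of a type and less RNA per cell cannot be told apart.

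Libraries held between 19655669 and 28209033 counts, and 3 counts in a library correspond to 0.0959 to 0.167 CPM. The summed CPM of 4 leaf mesophyll markers (3 Rubisco small subunits and Rubisco activase), all detected in every library, was 77421 to 85039 in control 5 h, 68022 to 79617 in infested 5 h, 66422 to 78206 in control 24 h and 28415 to 41587 in infested 24 h. For the glandular trichome markers MYC1 (*Solyc08g076930*) and TPS20 (*Solyc08g005670*), 2 of 2 detected, the sums were 25.9 to 31.6, 95.0 to 131, 12.9 to 20.5 and 31.9 to 60.5 CPM in the same order. Most of this sum is MYC1, whereas the mean of TPS20 was 2.79 ± 0.795 CPM (SD, n = 3) in control 5 h, 2.45 ± 1.79 in infested 5 h, 2.98 ± 3.91 in control 24 h and 0.722 ± 0.855 in infested 24 h. The part of these cell types in the results below was not tested. Levels below are CPM scaled by TMM and are not divided by gene length, so they are compared between groups and not between genes. No source used here states how reads matching several of these similar copies were counted, so the split between copies is uncertain.

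After 5 h of herbivory, *Solyc08g006740*, the gene named AADC2, rose strongly, the THT copy *Solyc08g068700* fell, and the other 5 genes did not pass the test. *Solyc08g006740* measured 0, 0.0815 and 0.285 CPM in the 3 control 5 h libraries and 8.02, 12.4 and 5.85 CPM in infested 5 h. The controls rest on 0, 2 and 7 counts, and every infested library lay far above every control. The fitted log2 fold change (log2FC, infested minus control) was 6.12 ± 0.84 (SE, n = 3 against 3), about 69.7-fold, with an adjusted p of 0.000529 in edgeR's quasi-likelihood test. The log2FC lay between 5.47 and 7.61 over the alternatives, being 7.61 without control 5 h replicate 3, which holds 7 of the 9 control counts, and 5.47 with a prior count of 2. The call held in all of them, though the prior count changes only the log2FC and could not move it. Because this gene is below 1 CPM in nearly all controls, it passed the filter through its infested libraries.

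The THT copy *Solyc08g068700* went the other way. Its level was 69.9, 71.6 and 100.2 CPM in control 5 h and 27.8, 38.5 and 32.8 CPM in infested 5 h, so all infested libraries lay below all controls. The log2FC was -1.29 ± 0.32 (adjusted p = 0.0204, edgeR), a level 2.44-fold lower. The call is lost when infested 5 h replicate 1 (adjusted p = 0.07097), infested 5 h replicate 3 (adjusted p = 0.06735) or control 5 h replicate 3 (adjusted p = 0.08766) is left out, with log2FC between -1.41 and -1.10 over all alternatives.

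The other AADC genes had low levels at 5 h. For *Solyc08g068680*, the gene named AADC1A, the control libraries gave 0.831, 0.775 and 0.897 CPM and the infested ones 2.23, 2.24 and 3.23 CPM, which do not overlap, with a log2FC of 1.61 ± 0.70 (adjusted p = 0.1734, edgeR). *Solyc08g068610* gave 0.593, 0.245 and 0.285 CPM in control 5 h against 1.30, 1.36 and 2.51 CPM in infested 5 h, again without overlap, with a log2FC of 2.16 ± 0.72 (adjusted p = 0.07137, edgeR). Neither passed the test in the fit of all 12 libraries. When only the 5 h libraries were fitted, both passed it, in edgeR with adjusted p = 0.007277 and 0.0112, and DESeq2 on all libraries gave adjusted p = 0.04032 and 0.005446.

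Among the remaining THT copies at 5 h, *Solyc08g068690* had 2.65, 3.38 and 4.24 CPM in controls and 4.71, 4.84 and 4.62 CPM in infested leaves, and the log2FC was 0.47 ± 0.50 (adjusted p = 0.6342, edgeR). *Solyc08g068710* ranged from 1.51 to 5.10 CPM in controls and from 4.08 to 5.24 CPM in infested leaves, with overlap and a log2FC of 0.65 ± 0.68. *Solyc08g068730* ranged from 0.158 to 1.71 CPM and from 1.34 to 4.80 CPM, also with overlap, with a log2FC of 1.58 ± 0.71. In counts, 1 of the 7 genes was higher, beside 6.94% of all genes tested, and 1 was lower, beside 5.59%. The infested and control libraries did not overlap in 5 of the 7, beside 35.9% of all genes tested.

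**Figure D1:**
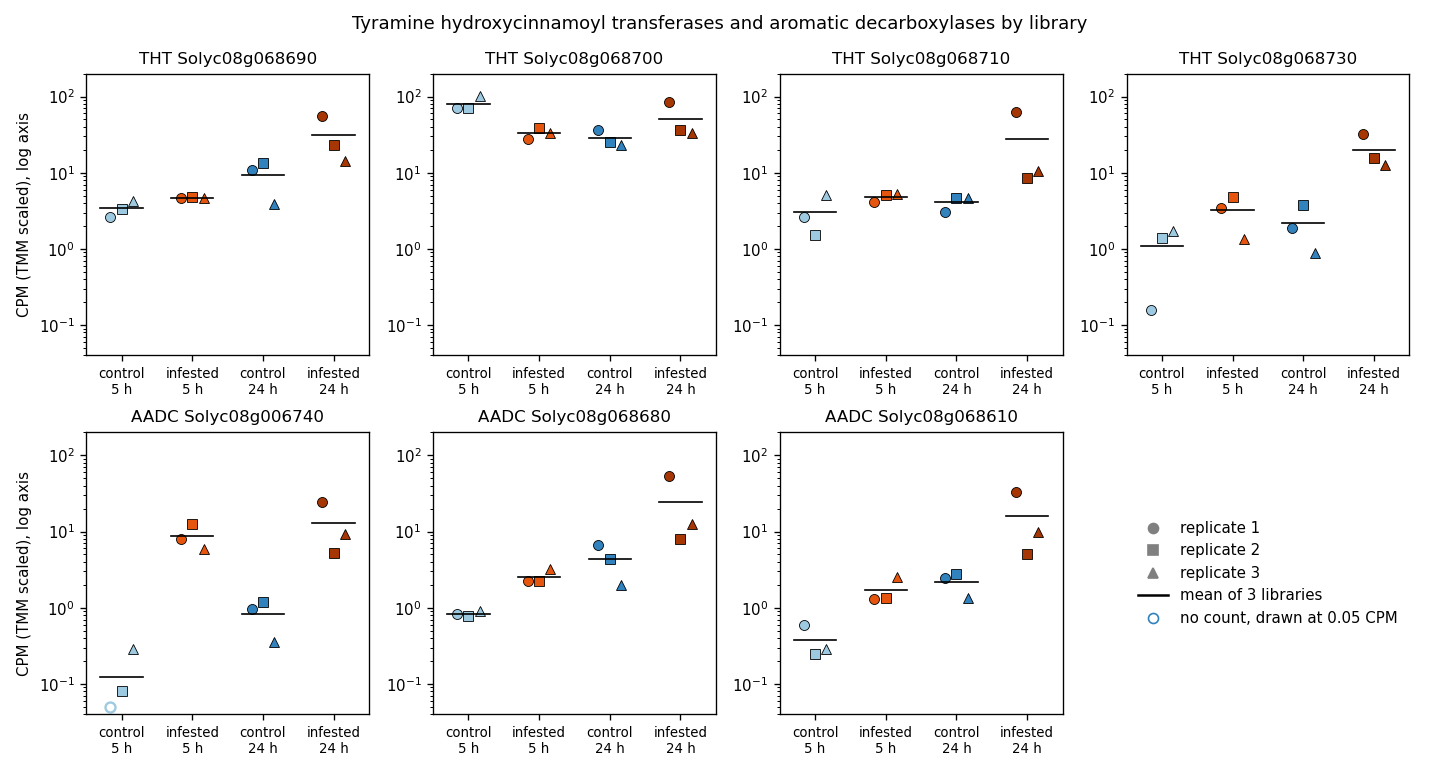
CPM (log axis) of the 4 THT and 3 AADC genes in each of the 12 libraries, with 1 panel per gene, symbols for replicates and a line at the mean of 3 libraries; an open circle marks a library without a count. *Solyc08g006740* stands at 5.85 to 12.4 CPM in infested 5 h against 0 to 0.285 in its controls, and infested 24 h replicate 1 is the highest library for 6 of the 7 genes.

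After 24 h of herbivory, 6 of the 7 genes were higher in infested leaves, beside 11.8% of all genes tested, and none was lower, beside 12.5%. With library totals in place of TMM, 3533 genes were higher and 1303 lower among all genes, against 2139 and 2279, and the median log2FC of all genes moved from 0.02 to 0.21; the members kept their calls and *Solyc08g068700* gained one. The 6 genes were the 3 AADC genes and 3 of the 4 THT copies. Infested and control libraries did not overlap in these 6, beside 36.4% of all genes tested. In the same libraries all 4 mesophyll markers fell, with log2FC between -1.04 and -0.96, and MYC1 rose by 1.73 on the log2 scale. The other trichome marker, TPS20, had a log2FC of -2.04 ± 1.06 and did not pass the test (adjusted p = 0.1847, edgeR). The part of these markers in the result was not tested.

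*Solyc08g068730* had the highest log2FC of the THT copies at 24 h. Its levels were 1.91, 3.80 and 0.891 CPM in control 24 h and 31.8, 15.7 and 12.7 CPM in infested 24 h, and the lowest infested library was 3.34 times the highest control. The log2FC was 3.18 ± 0.68 (adjusted p = 0.006265, edgeR).

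For *Solyc08g068710* the controls gave 3.07, 4.73 and 4.63 CPM and the infested libraries 63.3, 8.60 and 10.5 CPM. The 3 infested libraries were all above the controls, but replicate 1 was 6.65 times the mean of the other 2. The log2FC was 2.73 ± 0.68 (adjusted p = 0.01312, edgeR), and without infested 24 h replicate 1 it was 1.22 with an adjusted p of 0.05587. The call is also lost without control 24 h replicate 1 (adjusted p = 0.05263) and in the 6 libraries of 24 h alone (adjusted p = 0.0596).

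*Solyc08g068690* had 10.9, 13.4 and 3.92 CPM in control 24 h against 56.0, 22.9 and 14.3 CPM in infested 24 h. The lowest infested library was only 1.07 times the highest control. Its log2FC was 1.72 ± 0.48 (adjusted p = 0.02157, edgeR), which lost the call without infested 24 h replicate 1 (log2FC 1.01, adjusted p = 0.1052), without control 24 h replicate 3 (adjusted p = 0.06195) and in the 6 libraries alone (adjusted p = 0.09214).

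The copy that had fallen at 5 h did not pass the test at 24 h. *Solyc08g068700* measured 35.8, 25.4 and 23.2 CPM in control 24 h and 84.5, 36.0 and 33.2 CPM in infested 24 h, so the groups overlap. Its log2FC was 0.86 ± 0.32 (adjusted p = 0.06785, edgeR), and 5 alternatives gave an adjusted p below 0.05, the lowest being 0.02528 with DESeq2. Without infested 24 h replicate 1 the log2FC was 0.32.

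All 3 AADC genes rose at 24 h in the fit of 12 libraries. *Solyc08g006740* went from 0.953, 1.20 and 0.357 CPM in controls to 24.6, 5.21 and 9.38 CPM in infested leaves, a log2FC of 3.94 ± 0.67 (adjusted p = 0.001742, edgeR), or 15.3-fold. The groups were well apart, the lowest infested library being 4.34 times the highest control. *Solyc08g068610* went from 2.47, 2.75 and 1.34 CPM to 32.6, 5.08 and 9.77 CPM, a log2FC of 2.84 ± 0.60 (adjusted p = 0.005895, edgeR). *Solyc08g068680* went from 6.70, 4.30 and 1.96 CPM to 53.1, 7.89 and 12.6 CPM, a log2FC of 2.49 ± 0.61 (adjusted p = 0.01253, edgeR), but infested 24 h replicate 2 was only 1.18 times the highest control. The call of *Solyc08g068680* is lost without infested 24 h replicate 1 (log2FC 1.26, adjusted p = 0.05561) and in the 24 h libraries alone (adjusted p = 0.07086).

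**Figure D2:**
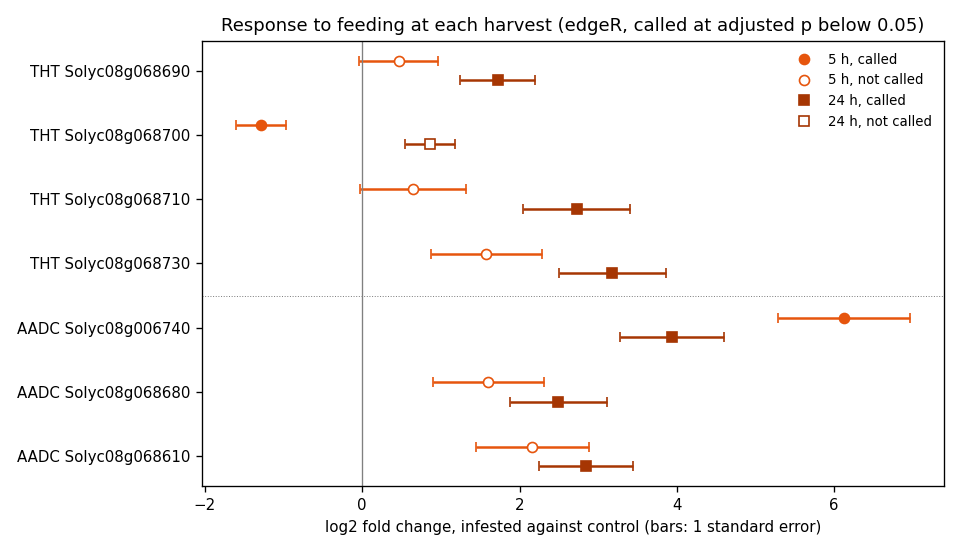
Log2 fold change of infested against control at 5 h (circles) and 24 h (squares) for each gene, with bars of 1 standard error; filled symbols have an adjusted p below 0.05. At 5 h *Solyc08g068700* lies at -1.29 and *Solyc08g006740* at 6.12, and at 24 h all genes lie between 0.86 and 3.94.

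Much of the size of the 24 h response came from 1 library. Infested 24 h replicate 1 was the highest of the 12 libraries for 6 of the 7 genes (85.7%), for 8 of the 16 tested genes that supply hydroxycinnamoyl-CoA (50%) and for 2876 of all 18200 genes (15.8%). It stood 2.24 to 6.65 times above the mean of the other 2 infested 24 h libraries, least for *Solyc08g068730* and most for *Solyc08g068710*. Without it, *Solyc08g068730* (log2FC 2.70), *Solyc08g006740* (3.12) and *Solyc08g068610* (1.78) were still called at 24 h, so 3 of the 7 genes were called instead of 6. Calls fell over all genes too: 1323 were higher at 24 h without this library, against 2139, and 1398 were lower, against 2279. At 5 h, where this library is in neither group compared and enters through the shared estimate of the spread and the scaling, *Solyc08g068680* (adjusted p = 0.02316, edgeR) and *Solyc08g068610* (adjusted p = 0.01143) were called when it was left out, so that all 3 AADC genes were higher. Over all genes, 1263 were higher at 5 h in the fit of 12 libraries, and 783 to 1502 with single libraries left out.

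**Figure D3:**
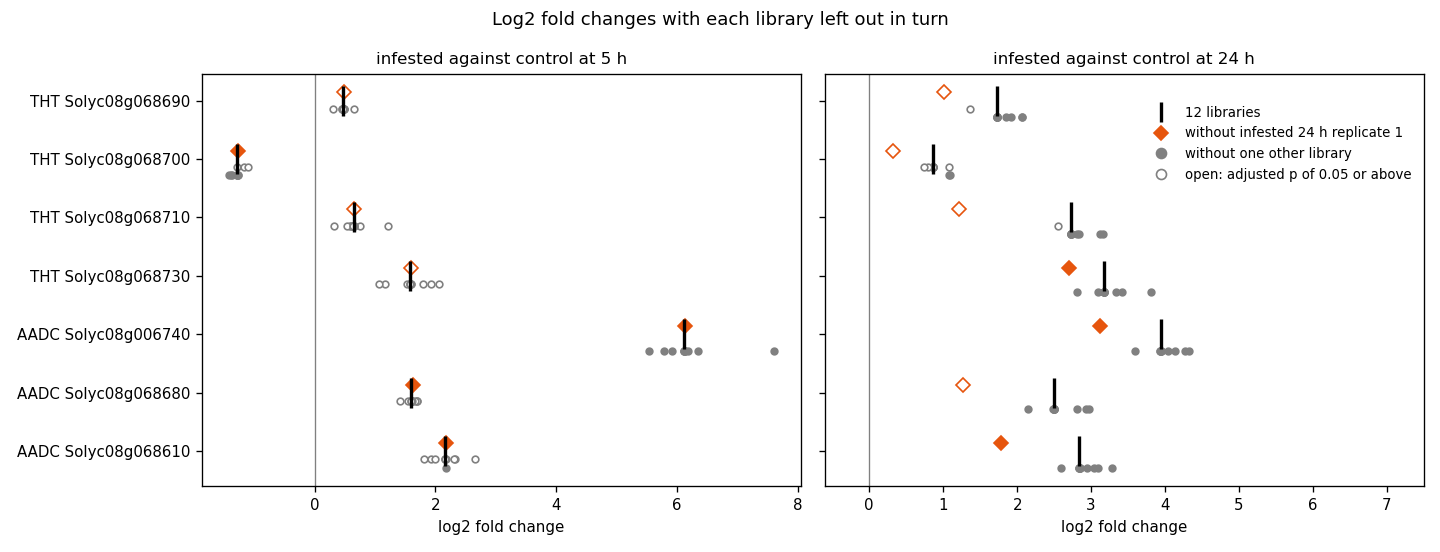
Log2 fold change of each gene at 5 h (left) and 24 h (right) in the fit of 12 libraries (bar) and with each library left out in turn (points); open symbols have an adjusted p of 0.05 or above, and filled points are drawn just under the open ones. Without infested 24 h replicate 1 (diamonds) *Solyc08g068710* moves from 2.73 to 1.22 and *Solyc08g068680* from 2.49 to 1.26 at 24 h, while *Solyc08g068730* moves from 3.18 to 2.70.

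Whether the response differed between the harvests was tested as the response at 24 h minus that at 5 h. It was higher for *Solyc08g068700* alone among the 7 genes, beside 0.687% of all genes tested, with a difference of 2.15 ± 0.45 on the log2 scale (adjusted p = 0.0364, edgeR). This call was lost in 10 of 21 alternatives, with a highest adjusted p of 0.1077: it does not hold with any library of 5 h or any control library of 24 h left out. For *Solyc08g006740* the difference was -2.18 ± 1.11 (adjusted p = 0.3421), for *Solyc08g068710* 2.08 ± 0.94 (adjusted p = 0.284) and for *Solyc08g068730* 1.60 ± 0.96 (adjusted p = 0.428), which do not pass the test. The other 3 had differences of 1.26 ± 0.69 (*Solyc08g068690*), 0.89 ± 0.93 (*Solyc08g068680*) and 0.68 ± 0.95 (*Solyc08g068610*).

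The controls themselves differed between the harvests, and they are the same libraries that the responses are measured against. In control 24 h against control 5 h, 5 of the 7 genes were called, beside 27.7% of all genes tested: 4 were higher, beside 13.7% of all genes tested, and 1 was lower, beside 14% of them. *Solyc08g068700* was lower by 1.52 on the log2 scale, with a log2FC of -1.52 ± 0.32 (adjusted p = 0.004087, edgeR), and kept this call in all 21 alternatives. The AADC genes were higher in the later controls. The log2FC was 2.37 ± 0.69 for *Solyc08g068680* (adjusted p = 0.02285, edgeR) and 2.53 ± 0.70 for *Solyc08g068610* (adjusted p = 0.01866, edgeR). For *Solyc08g006740*, which has 9 counts in all of control 5 h, it was 2.76 ± 0.93 (adjusted p = 0.04437, edgeR). These calls were lost in 4, 3 and 8 of 21 alternatives, in that order. *Solyc08g068690* was higher by 1.46 ± 0.50 (adjusted p = 0.04537, edgeR), although its controls overlap, and lost the call in 10 of 21. With single libraries left out, between 0 and 4 genes were called higher, and the count was 0 without control 5 h replicate 2. The file headers name the mapping input differently for the 5 h and 24 h libraries. Hour of harvest, time since the mock deposition and mapping input cannot be told apart in this comparison. The same holds below wherever levels, shares or correlations are taken across harvests.

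Ordered by mean level, the groups fell into different patterns. Means of *Solyc08g006740* ran from 0.122 ± 0.147 CPM (SD, n = 3) in control 5 h to 0.837 ± 0.434 in control 24 h, 8.77 ± 3.36 in infested 5 h and 13.1 ± 10.2 in infested 24 h, and only the last 2 groups overlap. *Solyc08g068680* and *Solyc08g068610* followed the order control 5 h, infested 5 h, control 24 h and infested 24 h, with overlap only between infested 5 h and control 24 h. Their means in infested 5 h were 2.57 ± 0.576 and 1.72 ± 0.680 CPM, and in control 24 h 4.32 ± 2.37 and 2.19 ± 0.748 CPM. *Solyc08g068710* and *Solyc08g068730* overlapped between all neighbours except the step to infested 24 h, where their means were 27.5 ± 31.1 and 20.0 ± 10.3 CPM. For *Solyc08g068690*, with 9.38 ± 4.89 CPM in control 24 h and 31.1 ± 22.0 CPM in infested 24 h, only infested 5 h and control 24 h overlap. *Solyc08g068700* had its highest mean in control 5 h, 80.6 ± 17.0 CPM, and its lowest in control 24 h, 28.1 ± 6.76 CPM, and each neighbour in the order overlapped the next.

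Within each library, the counts of the 4 THT copies were shared out differently by group. Of the summed counts, *Solyc08g068700* took a mean of 91.6% in control 5 h (90.1 to 92.8%), 72.1% in infested 5 h (69.4 to 74.5%), 64.7% in control 24 h (53.7 to 71.0%) and 42.0% in infested 24 h (35.9 to 47.0%). Its share was thus lower in every infested library than in every control of the same harvest, also in infested 24 h replicates 2 and 3. The mean share of *Solyc08g068730* was 1.18% in control 5 h and 6.89% in infested 5 h, and 4.81% and 16.8% at 24 h. These are shares of reads, not of transcripts per length, and with 3 against 3 libraries an exact permutation test cannot go below 0.1, so none was run.

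The sum of the 4 THT copies was 88.2 ± 20.0 CPM in control 5 h and 45.8 ± 6.80 CPM in infested 5 h, a ratio of 0.519. At 24 h it was 43.9 ± 9.98 CPM in controls and 129.8 ± 91.8 CPM in infested leaves, a ratio of 2.96, which is 1.75 without infested 24 h replicate 1. The sum of the 3 AADC genes went from 1.33 ± 0.200 to 13.1 ± 2.59 CPM at 5 h, a ratio of 9.81, and from 7.34 ± 3.33 to 53.4 ± 49.7 CPM at 24 h, a ratio of 7.27, which is 3.40 without infested 24 h replicate 1. In infested 5 h, *Solyc08g006740* took 65.8% of the AADC counts (50.5 to 77.6%), against 26.8% in infested 24 h (22.4 to 29.5%) and 11.2% in control 24 h. Its share in control 5 h, 0 to 19.4%, rests on 27 to 36 AADC counts per library.

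**Figure D4:**
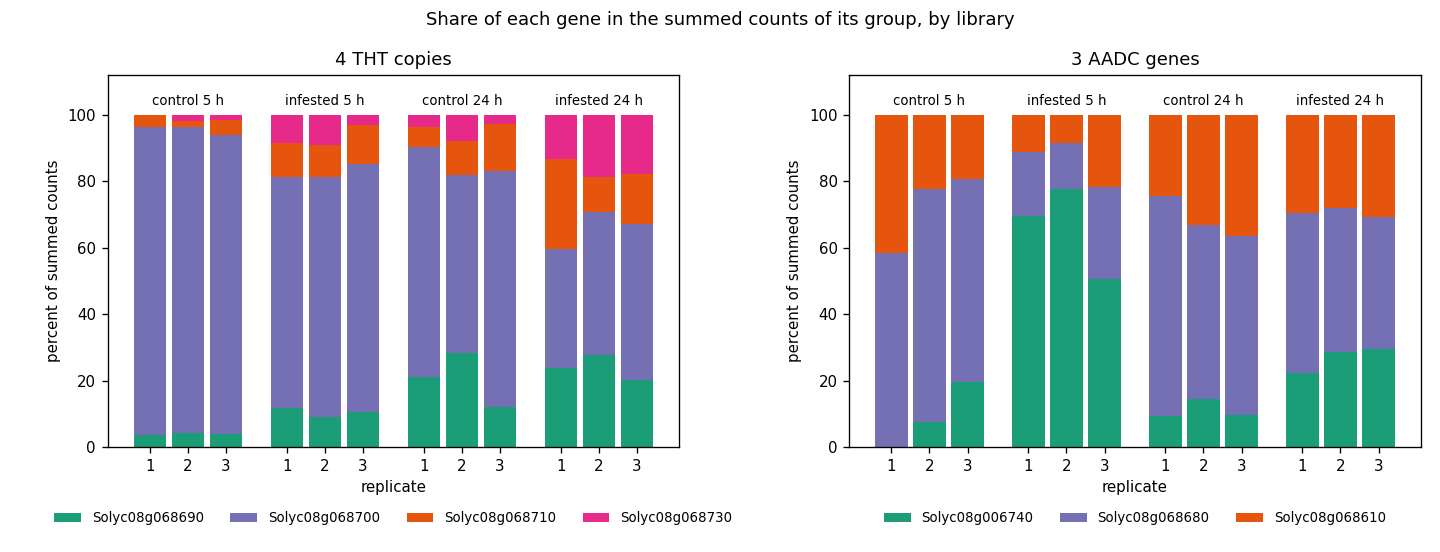
Share of each gene in the summed counts of the 4 THT copies (left) and the 3 AADC genes (right), as stacked bars in percent, 1 bar per library. The *Solyc08g068700* band spans 90.1 to 92.8% in control 5 h and 35.9 to 47.0% in infested 24 h, and *Solyc08g006740* takes 50.5 to 77.6% in infested 5 h.

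Of the other THT genes on the pathway list of the study, *Solyc08g068780* had 84 to 464 counts per library and log2FC of 0.08 ± 0.32 at 5 h and 0.47 ± 0.32 at 24 h (adjusted p = 0.9187 and 0.3098, edgeR). No count was found for *Solyc08g068720* in any of the 12 libraries.

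The substrates of THT come from the phenylpropanoid and aromatic amino acid pathways. Of 23 genes listed for hydroxycinnamoyl-CoA supply, 21 were in the tables and 16 were tested. At 5 h, 11 of these were higher, beside 6.94% of all genes tested, and none lower, with a median log2FC of 1.41 beside -0.03 over all genes tested. At 24 h, 10 were higher, beside 11.8% of all genes tested, and none lower, with a median of 0.99 beside 0.02. Without infested 24 h replicate 1 the count was 7, while the count over all genes fell from 2139 to 1323. The highest log2FC at both harvests belonged to the caffeoyl-CoA O-methyltransferase gene *Solyc04g063210*, which makes the feruloyl thioester: it rose from 4.40 to 6.08 CPM in control 5 h to 61.3 to 102 CPM in infested 5 h (log2FC 3.91 ± 0.23) and from 8.52 to 10.3 CPM to 38.3 to 60.1 CPM at 24 h (log2FC 2.44 ± 0.22). The lowest log2FC were -0.95 ± 0.48 for the 4-coumarate CoA ligase gene *Solyc12g042460* at 5 h and -0.55 ± 0.23 for *Solyc01g107910*, another caffeoyl-CoA O-methyltransferase gene, at 24 h, and neither passed the test. In the difference between harvests, 3 of the 16 were lower at 24 h and none higher, beside 1.47% of all genes tested that were lower. In control 24 h against control 5 h, 10 of the 16 were higher, beside 13.7% of all genes tested, with a median log2FC of 1.04. These controls enter the difference, and their part in it was not tested.

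The 4 genes listed for tyrosine and phenylalanine synthesis, which the study picked from these same libraries, had 2 higher at 5 h and 1 at 24 h, beside 6.94% and 11.8% of all genes tested, and median log2FC of 0.76 and 0.52, beside -0.03 and 0.02. The largest log2FC at both harvests was that of the prephenate dehydratase gene *Solyc06g074530*, 1.35 ± 0.47 and 1.26 ± 0.45, which did not pass the test. The smallest were 0.67 ± 0.16 for the chorismate mutase gene *Solyc02g088460* at 5 h, which did, and -0.66 ± 0.26 for the prephenate dehydratase gene *Solyc11g066890* at 24 h, which did not.

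The competing acceptor, putrescine, is joined to the same thioesters by other transferases. Both putrescine hydroxycinnamoyl transferase genes, singled out in the study for their induction in these libraries, were higher at both harvests, beside the same shares of all genes. *Solyc11g071470* had 2 to 10 counts in control 5 h and 210 to 545 in infested 5 h (log2FC 6.02 ± 0.70), and 10 to 18 against 97 to 381 at 24 h (log2FC 4.04 ± 0.62). *Solyc11g071480* had no count in control 5 h and 368 to 1588 in infested 5 h, and 0 to 12 against 20 to 1643 at 24 h. Of 6 genes listed for putrescine supply, 5 were tested and 3 were higher at each harvest, beside 6.94% of all genes tested at 5 h and 11.8% at 24 h. These 3 were arginase and ornithine decarboxylase genes, which the study also singled out for their induction in these libraries. At 24 h the ornithine decarboxylase gene overlapped its controls, with 18.7 to 145 CPM in infested leaves and 10.4 to 25.6 CPM in controls. In this list the arginase gene *Solyc01g091170* had a log2FC of 8.51 ± 0.67 and 8.35 ± 0.65, and the agmatine deiminase gene *Solyc12g038970* had -0.10 ± 0.16 and -0.11 ± 0.16.

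Across the 12 libraries, *Solyc08g068680* and *Solyc08g068610* were each other's closest genes, with a Pearson correlation of log2 CPM of 0.979, given as a description since the points share their 4 groups, and infested 24 h replicate 1 is the highest for both. The THT copies *Solyc08g068690*, *Solyc08g068710* and *Solyc08g068730* correlated with each other at 0.781 to 0.869 and with the AADC genes at 0.632 to 0.943. *Solyc08g068700* stood apart, with correlations of -0.29 to 0.16 with the other 6 genes. Its closest genes were *Solyc06g061180* (0.944) and *Solyc05g008810* (0.936). The closest to *Solyc08g006740* was *Solyc09g014280* (0.979) and to *Solyc08g068690* was *Solyc01g100200* (0.980), none of which the tables pair with a name.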

How the data were processed

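RNA of 12 leaf libraries was analysed from the deposited tables, which hold whole-number counts per gene that the authors made with Trimmomatic, BWA-MEM and FeatureCounts, with no normalization, although the methods speak of FPKM. No source used here states the strand setting. The annotation is stated as ITAG in the methods, but the version suffixes of the identifiers differ from those in the study's own list. Identifiers were matched without suffix. The reference table of gene names matched none of them, so positions and sequences were not used here.

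The software was edgeR 4.0.16, DESeq2 1.42.0 and limma 3.58.1 under R 4.3.3. A gene was tested where at least 3 libraries exceeded 1 CPM, which held for 18200 genes. All 12 libraries were fitted with 1 mean per group and TMM factors, and contrasts were tested with the quasi-likelihood F test, with Benjamini-Hochberg adjustment over the tested genes; a call is an adjusted p below 0.05. The standard error is the log2FC divided by the square root of F, and log2FC use a prior count of 0.125. Correlations use log2 CPM with a prior count of 2. The code was tested on simulated data. No pair of replicates agreed within sampling noise, with chi-square per degree of freedom of 10.4 or more. Floors of 3 counts cover counting error only.

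The members and gene lists were chosen with earlier results of these data known. The named genes are the 7 members, the genes with the largest and smallest log2FC of each list, and those with the closest pattern to a member; *Solyc11g071480*, *Solyc08g068780* and *Solyc08g068720* complete short lists. Listed genes that were unmatched (*Solyc00g282510*, *Solyc03g071860* and *Solyc01g110440*) were not analysed here. The alternatives were scaling by library totals or by size factors from DESeq2, testing without the filter or with filterByExpr, a Wald test in DESeq2, edgeR's likelihood ratio test, a further limit of 1.5 on the absolute log2FC, fitting a harvest by itself, a block for replicate number, leaving out single libraries and a prior count of 2 for log2FC.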

Additional observations from a re-analysis of the deposited data

Results flagged for a closer look

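The response of the THT copy *Solyc08g068700* to herbivory differed between the harvests in the test of the difference itself, in the fit of all 12 libraries. It fell at 5 h (log2FC -1.29, lower in 3 of 3 infested libraries than in every control) and was 0.86 at 24 h, where it did not pass the test, a difference of 2.15 on the log2 scale (adjusted p = 0.0364, edgeR). Over the alternatives the difference lay between 1.59 and 2.38, with adjusted p between 0.0002029 and 0.1077, and the call was lost in 10 of 21. Without infested 24 h replicate 1 the log2FC at 24 h was 0.32. The level in the controls fell by 1.52 on the log2 scale between the harvests, and these controls enter both responses.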

How the results depend on the processing

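Of 602 values of single genes over the alternatives, 540 kept their direction and their side of the threshold, 47 lost a call, 13 gained one and none of the called values reversed. The difference of response changed sign for *Solyc08g068680* (-0.36) and *Solyc08g068610* (-0.40), neither of them called, without infested 24 h replicate 1. Calls of *Solyc08g006740* at both harvests and of *Solyc08g068730* and *Solyc08g068610* at 24 h held in all 22 alternatives.

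The count of the 7 genes higher at 5 h was 2 with the likelihood ratio test and 3 with DESeq2's Wald test or the harvest alone, against 1. The count lower at 5 h was 0 with a limit of 1.5 on the log2FC, against 1, and the same limit left 2 of the supply genes higher at 24 h, against 10. In the 6 libraries of 24 h alone, 3 of the 7 were higher, against 6, and the smaller number of samples is part of that alternative. With single libraries left out, the counts ranged from 1 to 3 (higher at 5 h), 0 to 1 (lower at 5 h), 3 to 7 (higher at 24 h), 0 to 1 (higher in the difference), 0 to 4 (higher in control 24 h) and 7 to 11 (supply genes higher at 24 h). Where counts moved otherwise, the cause was not tested.

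Of 18 same-numbered pairs of deviations, with correlations from -0.27 to 0.34, 4 were over 0.1. Pairs with different numbers were not computed as a reference, so this cannot decide whether replicate numbers pair the samples. With the replicate block, the count was 0 for the difference (*Solyc08g068700*, 2.10, adjusted p = 0.0548) and 2 for control 24 h against control 5 h, against 1 and 4, and no other count of the members changed.

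Over all genes, counts that moved by over 1.5 times were, with the likelihood ratio test, 309 higher and 534 lower in the difference, and with DESeq2 395 and 722, against 125 and 268; with the block 52 and 164; and with library totals 135 lower. The limit of 1.5 left 606 higher and 172 lower at 5 h (against 1263 and 1017), 659 and 158 at 24 h, 61 and 58 in the difference and 682 and 626 in the controls (against 2485 and 2552). The 24 h libraries alone gave 825 and 1127, against 2139 and 2279, and library totals gave 3533 and 1303. With single libraries left out, the counts ran from 783 to 1502 higher and 443 to 1188 lower at 5 h, 1219 to 2477 and 1398 to 2207 at 24 h, and 5 to 191 and 7 to 640 in the difference, with 5 and 13 without infested 5 h replicate 2 and 6 and 7 without control 5 h replicate 2. Low counts of the AADC genes in control 5 h (9, 62 and 28 counts in 3 libraries) limit their fold changes there.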
